A study of Arabidopsis thaliana with 22 samples.

Results

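*PAB2* (AT4G34110), *PAB4* (AT2G23350) and *PAB8* (AT1G49760) encode poly(A) binding proteins (PABPs) of *Arabidopsis thaliana*, and their mRNAs were followed here through the non-polysomal, polysomal and total RNA of shoots in which both *PAB2* and *PAB8* are disrupted. The 3 genes were chosen by name, and each is read by 1 of the 22746 probe sets on the array. All 3 gave values on every array, and no filter on low signals was applied. PABP binds the poly(A) tail of mRNAs through RNA recognition motifs. By contacting the scaffold protein eIF4G on the cap-binding complex, it brings both ends of an mRNA together, which favours the start of translation, and it covers the tail that deadenylases would otherwise shorten. *Arabidopsis* carries a family of PABP genes, of which *PAB2*, *PAB4* and *PAB8* are the members active in most tissues. In human cells, the mRNA of the main cytoplasmic PABP holds an adenosine-rich stretch in its 5′ leader to which the protein itself binds and lowers translation; the leaders of the *Arabidopsis* mRNAs were not examined here.

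The mutant, *pab2 pab8*, is 1 double T-DNA insertion line (alleles SALK_026293 of *PAB2* and SALK_022160 of *PAB8*) in the Columbia-0 ecotype, with *PAB4* intact, and it was compared with wild-type Columbia-0. Both genotypes were seedlings of 10 to 12 days, kept at 22 °C in continuous light on agar with Murashige and Skoog salts and 1% sucrose, and only the parts above ground were taken. Sucrose gradients split the extracts into a polysomal fraction (PL, mRNAs carrying several ribosomes) and a non-polysomal fraction (NP, free mRNAs and those with a single ribosome). Total RNA was extracted alongside. There were 4 mutant and 4 wild-type arrays of NP, 4 and 4 of PL, and 3 and 3 of total RNA. By the growth notes in the labels, mutant and wild-type were raised together and the replicates at separate times, so samples with equal replicate numbers were taken as pairs; no label ties a number to a date. The translation state (TL) of an mRNA is the log2 PL signal less the log2 NP signal, taken within a genotype and replicate.

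Signals are log2 values after robust multi-array averaging (RMA), in which the fraction arrays and the total RNA arrays lie on separate scales. The array medians were 4.68 to 4.99 in PL and NP and 6.12 to 6.23 in total RNA, and the lowest was that of mutant NP replicate 2. Across the probe sets, mean total RNA signals correlated with PL at r = 0.84 in *pab2 pab8* and 0.84 in wild-type (r across 22746 probe sets of the same arrays, which are no replicates). The labelled tissue, green shoot, was checked with 2 measured markers of the 6 on the list, *RCA* (Rubisco activase) and *LHCA4* (a light-harvesting protein of photosystem I). In total RNA of both genotypes *RCA* lay at 14.24 to 14.37 and *LHCA4* at 13.56 to 13.77. On the fraction arrays the same probe sets lay at 3.40 to 4.63 for *RCA* and at 3.05 to 4.13 for *LHCA4*, both below every array median. So the defining shoot mRNAs were bright in total RNA and dimmer than most probe sets in both fractions, in either genotype, and the part that this gap plays in the results was not tested. The 2 measured root markers of 5, *EXPA7* and *EXPA18* (expansins of root hairs), lay at 4.02 to 4.84 in total RNA and at 3.56 to 4.49 in the fractions.

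The disrupted genes were read first, since they check the labels. *PAB2* was the probe set with the lowest change of all 22746 in NP, in PL and in total RNA, and *PAB8* stood next to it each time. Where the probes lie relative to the insertions is not given in the sources used here. In NP, *PAB2* had log2 signals of 4.59, 5.06, 5.29 and 4.62 in *pab2 pab8*, against 10.68, 11.11, 10.96 and 11.18 in wild-type (replicates 1 to 4). In PL it had 4.55, 5.11, 5.09 and 4.34 in *pab2 pab8*, against 9.68, 10.09, 10.03 and 9.80 in wild-type. In total RNA it had 4.954, 5.067 and 5.003 in *pab2 pab8*, against 10.70, 11.01 and 10.55 in wild-type. Every mutant array was far below every wild-type array of its kind, with gaps of 5.39, 4.56 and 5.48 between the closest arrays of NP, PL and total RNA. The mean change was -6.09 in NP (SE 0.20, 95% confidence interval -6.52 to -5.67, limma, false discovery rate (FDR) 1.07e-08), or 68.2-fold lower. It was -5.13 in PL (SE 0.19, interval -5.56 to -4.69, limma, FDR 7.88e-06), or 34.9-fold lower. In total RNA it was -5.74 (SE 0.12, interval -6.02 to -5.47, limma, FDR 6.50e-08), or 53.5-fold lower. In the mutant the *PAB2* signals sat around the array median in both fractions (between 42.0% and 56.6% of probe sets lay below them) and below it in total RNA (at most 36.9%). They were not shown to be above background, so each fold is to be read as a lower limit.

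*PAB8*, the other disrupted gene, also fell in all 3 kinds of RNA. In NP it had 5.53, 4.57, 4.94 and 4.92 in *pab2 pab8*, against 8.04, 8.24, 8.13 and 8.32 in wild-type. In PL it had 4.00, 4.47, 4.46 and 4.35 in *pab2 pab8*, against 7.98, 7.81, 7.66 and 7.69 in wild-type. In total RNA it had 6.43, 5.88 and 6.69 in *pab2 pab8*, against 9.95, 10.34 and 9.89 in wild-type. The genotypes did not overlap in any kind of RNA. Non-overlap in this direction was seen for 3.01% of probe sets in NP, 2.59% in PL and 15% in total RNA. Mutant replicate 1 was at once the highest of the mutant arrays in NP and the lowest in PL. The change was -3.19 in NP (SE 0.20, interval -3.62 to -2.76, limma, FDR 1.41e-05), -3.47 in PL (SE 0.13, interval -3.76 to -3.17, limma, FDR 7.88e-06) and -3.73 in total RNA (SE 0.20, interval -4.18 to -3.28, limma, FDR 0.000136), or 9.14-fold, 11.1-fold and 13.3-fold lower. Mutant *PAB8* signals lay around the array median in NP and total RNA and below it in PL, so these folds too are lower limits, and their sizes are not comparable with those of *PAB2*, which another probe set reads. Between the replicate pairs these changes ran between -3.67 and -2.51 in NP and between -4.46 and -3.20 in total RNA. For scale, 0.0264% of probe sets were called lower in NP, 0.101% in PL and 1.45% in total RNA at an FDR below 0.05, and 2, 2 and 3 of the 3 genes were among them. With a change of at least 2-fold as well, the shares were 0.0264% in NP, 0.0659% in PL and 0.101% in total RNA, and *PAB2* and *PAB8* passed in each. Both genes carry a T-DNA insertion in this line, and the paper takes their reduced mRNA signals as fitting a loss of function. From the signals of bulk extracts alone, fewer cells of a type and less RNA per cell cannot be told apart.

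**Figure D1:**
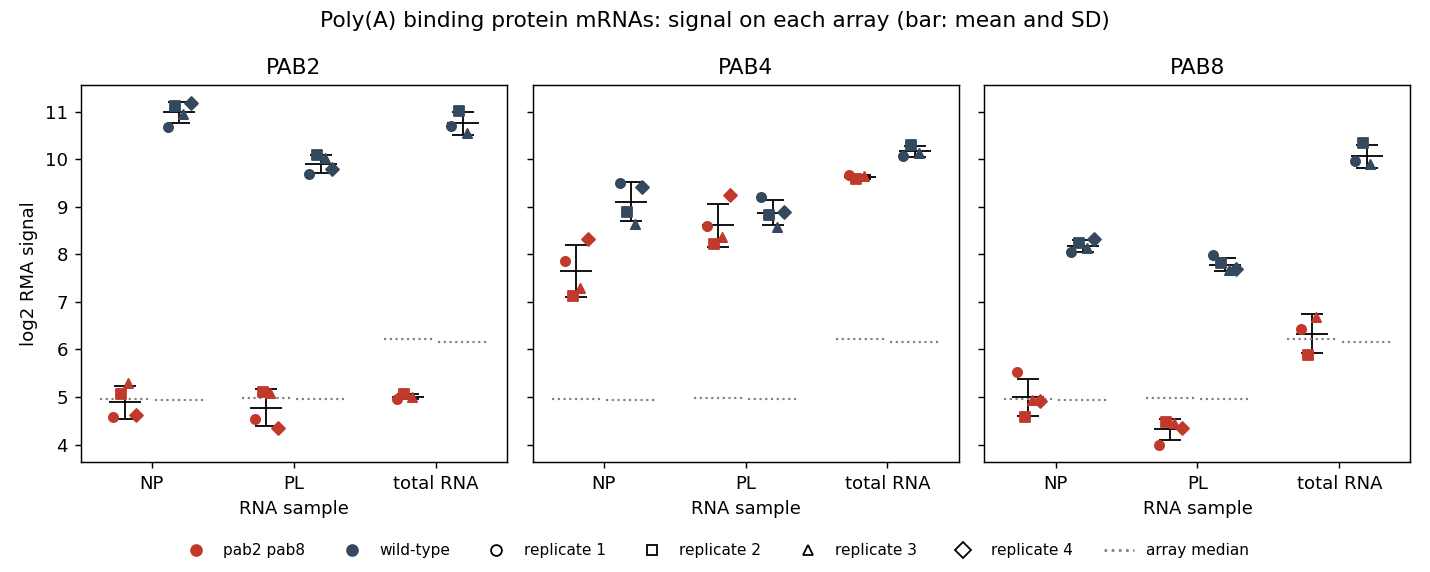
Log2 RMA signal of *PAB2*, *PAB4* and *PAB8* on each NP, PL and total RNA array of *pab2 pab8* (red) and wild-type (dark blue), with the symbol giving the replicate, bars the mean and SD, and dotted lines the middle array median of the group. In every kind of RNA the mutant signals of *PAB2* and *PAB8* lie far below the wild-type signals, between 3.995 and 6.687, while *PAB4* stays above the array median on every array.

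*PAB4*, the gene left intact, had a lower NP signal in each *pab2 pab8* sample than in any wild-type sample, while its PL signals overlapped between the genotypes. In NP it had 7.853, 7.131, 7.285 and 8.324 in *pab2 pab8* (mean 7.65 ± 0.55, SD, n = 4), against 9.498, 8.881, 8.635 and 9.411 in wild-type (9.11 ± 0.42, n = 4). All 4 mutant arrays lay below the lowest wild-type array, by 0.31 at the closest, and non-overlap in this direction was seen for 3.01% of probe sets. The change was -1.46 (SE 0.28, interval -2.06 to -0.86), or 2.75-fold lower, and it was negative in 4 of 4 pairs, between -1.75 and -1.09. It was the eighth-lowest change in NP among all probe sets, yet it missed the threshold in the fit without pairs (limma, FDR 0.0879). With the replicate number as a block it passed (limma, FDR 0.00185), in a fit that called 62 probe sets lower in NP where the fit without the block called 6.

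In PL, *PAB4* had 8.59, 8.23, 8.36 and 9.26 in *pab2 pab8* (8.61 ± 0.46, n = 4), against 9.21, 8.83, 8.57 and 8.89 in wild-type (8.88 ± 0.26, n = 4). The groups overlapped over most of their range, and the highest of the 8 values was mutant replicate 4. The difference was -0.27 (interval -0.78 to 0.24, limma, FDR 0.953), and it had no common sign over the pairs, at -0.63, -0.60, -0.21 and 0.36 in replicates 1 to 4. With the replicate number as a block the FDR was 0.415, in a fit that called 488 probe sets lower in PL where the fit without the block called 23. In total RNA, *PAB4* had 9.68, 9.59 and 9.64 in *pab2 pab8*, against 10.07, 10.30 and 10.12 in wild-type. The 3 mutant arrays lay below the 3 wild-type arrays, as they did for 15% of all probe sets. The mRNA fell by 0.53 (limma, change -0.53, SE 0.09, interval -0.74 to -0.32, FDR 0.0190), or 1.44-fold. Both measured root markers were also lower in total RNA of *pab2 pab8*, with differences of -0.37 for *EXPA7* and -0.26 for *EXPA18*, without passing the test (limma, FDR 0.147 and 0.161). Only parts above ground were taken, and both markers lay at 4.02 to 4.84 there, below the array medians of 6.12 to 6.23. The log2 of the summed marker signal was 5.09 to 5.31 in *pab2 pab8* and 5.40 to 5.65 in wild-type. The part of these markers in the *PAB4* change was not tested. The call in total RNA was lost when any 1 replicate was left out (limma, change -0.59 to -0.44, FDR 0.101 to 0.127).

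**Figure D2:**
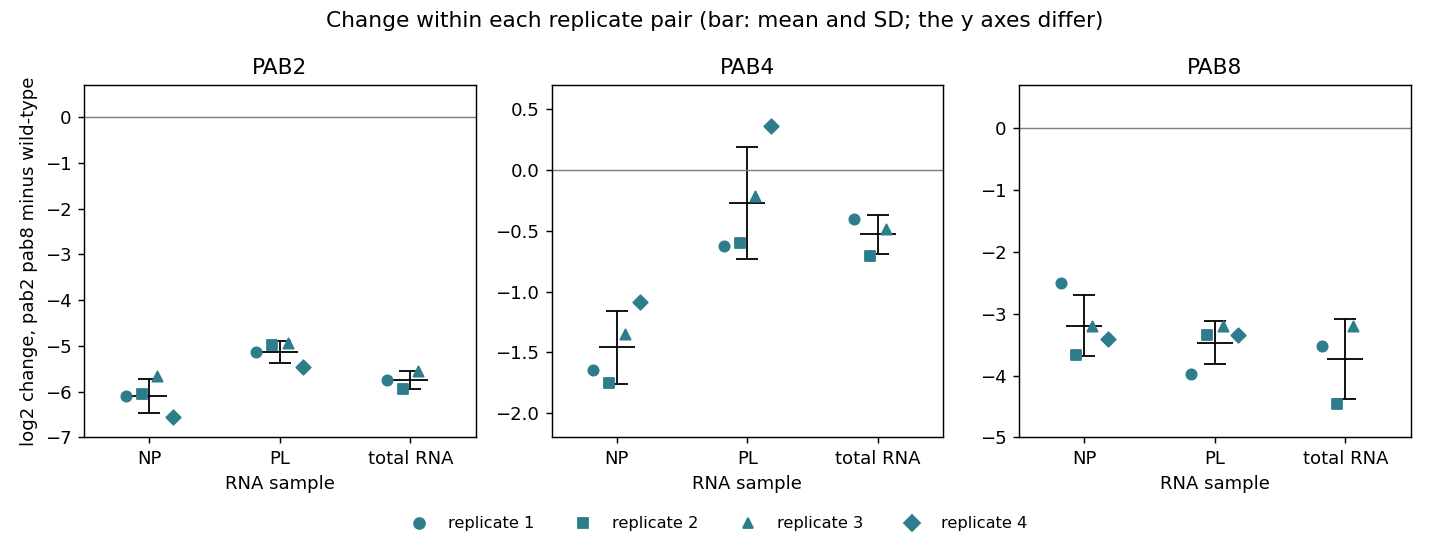
Log2 change of each mRNA, *pab2 pab8* minus wild-type, within each replicate pair for NP, PL and total RNA, with bars for the mean and SD over pairs and a separate y axis for each gene. *PAB4* changes lay between -1.75 and -1.09 in NP and between -0.63 and 0.36 in PL, whereas *PAB2* and *PAB8* changes were far below 0 in all 3 kinds of RNA.

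Total RNA was measured in replicates 1 to 3 only, so the changes were also set side by side over these replicates. For *PAB4* they averaged -1.58 in NP, -0.48 in PL and -0.53 in total RNA. For *PAB2* they averaged -5.94, -5.02 and -5.74, and for *PAB8* -3.12, -3.51 and -3.73, in the same order of RNAs. The *PAB4* change in total RNA thus lay near that in PL and 1.05 above that in NP. The *PAB2* and *PAB8* changes in total RNA were within 0.73 and 0.61 of those in either fraction, and that of *PAB2* lay 0.19 above that in NP. Mutant signals of these 2 genes were near or below the array median, on arrays of separate scales. Whether the genes differ in these gaps was not tested.

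The translation state of *PAB4* was higher in *pab2 pab8* than in wild-type in each replicate. Its TL was 0.73, 1.10, 1.08 and 0.93 in *pab2 pab8* (0.96 ± 0.17, n = 4), against -0.29, -0.05, -0.06 and -0.52 in wild-type (-0.23 ± 0.22, n = 4). The lowest mutant value lay 0.79 above the highest wild-type value, and non-overlap in this direction was seen for 2.64% of probe sets. TL rose by 1.19 (SE 0.17, interval 0.83 to 1.55, limma, FDR 0.0142), the ratio of PL to NP being 1.94 in the mutant and 0.85 in wild-type. Since TL is formed from the same arrays, this is also the test that the genotype change in PL differs from that in NP. *PAB4* was 1 of 6 probe sets called higher in TL, 0.0264% of all, and the share was the same 0.0264% with the 2-fold criterion. With the replicate block the FDR was 0.0288. The call was lost without replicate 2, 3 or 4 (limma, FDR 0.100, 0.263 and 0.310, with the change between 1.10 and 1.21), and in a fit of genotype by fraction that takes PL and NP of a gradient as unpaired (limma, FDR 0.9999).

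Behind the TL gain of *PAB4* stood a low NP signal rather than a high PL signal. A TL change above 1, a limit chosen after the values were seen, was found for 18 probe sets, and of these *PAB4* alone had a PL change below 0 and an NP change below -1. The other 17 all had NP changes above 0, between 0.13 and 2.01, and PL changes between 1.17 and 4.44. Of the 6 probe sets called lower in NP, 0 had so large a TL change. *PAB2*, which is among these 6, fell just short of the limit. Its TL change was 0.96, with changes of -6.09 in NP and -5.13 in PL, so it too fell more in NP than in PL. These counts describe probe sets chosen by their TL change, and no test was made of them.

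**Figure D3:**
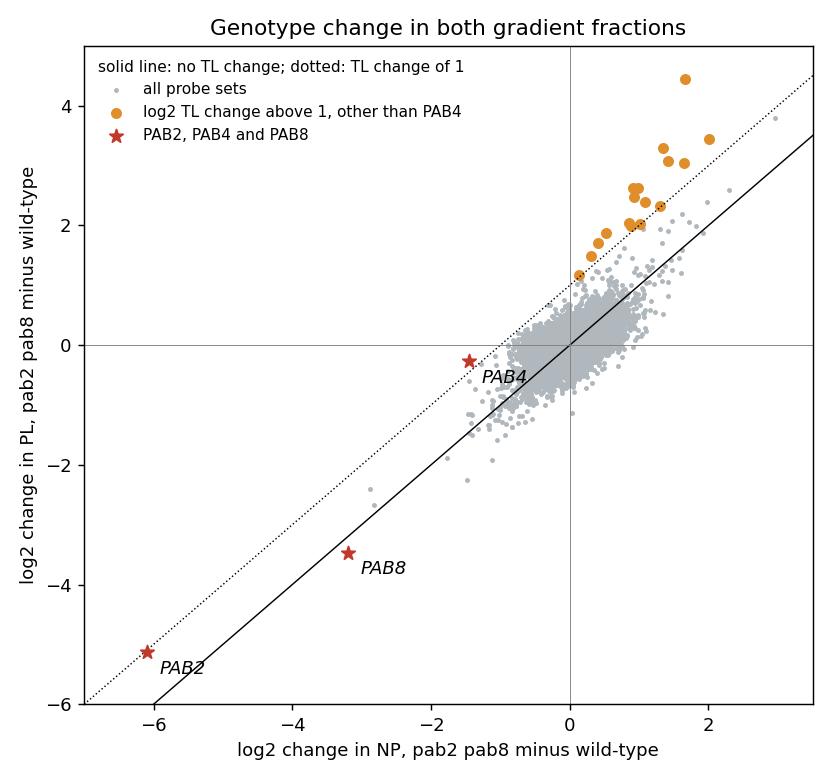
Log2 change in NP (x axis) and in PL (y axis), *pab2 pab8* minus wild-type, for all 22746 probe sets (grey), the 17 others whose TL change exceeded 1 (orange) and *PAB2*, *PAB4* and *PAB8* (stars). The orange points have positive changes in both fractions, whereas *PAB4* lies at -1.46 in NP and -0.27 in PL.

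*PAB2* also had a higher TL in each mutant sample, but this ratio rests on mutant signals near the array median. Its TL was -0.04, 0.05, -0.20 and -0.27 in *pab2 pab8* (-0.12 ± 0.15, n = 4), against -1.01, -1.02, -0.93 and -1.37 in wild-type (-1.08 ± 0.20, n = 4). The groups did not overlap, and neither did they for 2.64% of probe sets in this direction. The difference of 0.96 (SE 0.17, interval 0.61 to 1.32) missed the threshold (limma, FDR 0.0684). It passed with a variance prior that follows the mean signal (limma, FDR 0.00722) and after quantile normalization of the arrays of each kind (0.94, limma, FDR 0.0470). Whether such a ratio reports ribosome loading where little mRNA is left was not tested.

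*PAB8* showed no common direction in TL. It had -1.54, -0.10, -0.48 and -0.57 in *pab2 pab8* (-0.67 ± 0.61, n = 4), against -0.06, -0.42, -0.47 and -0.64 in wild-type (-0.40 ± 0.24, n = 4). Mutant replicate 1 was the lowest of all 8 values and wild-type replicate 1 the highest, while the other replicates of both genotypes overlapped. The SD of the 4 mutant values was larger than that of 97.8% of all probe sets in the mutant. The difference was -0.27 (interval -0.80 to 0.25, limma, FDR 0.806), and without replicate 1 it was 0.12 (limma, FDR 0.940).

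**Figure D4:**
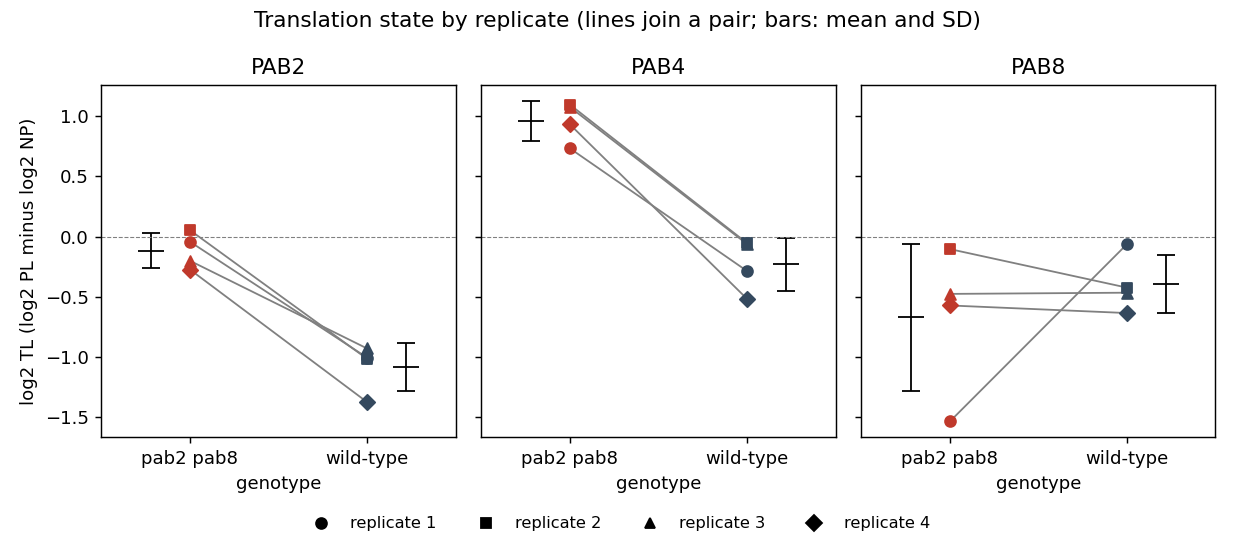
TL (log2 PL minus log2 NP) of each mRNA in *pab2 pab8* (left) and wild-type (right), with lines joining the pair of a replicate and bars for the mean and SD (n = 4). Mutant and wild-type values are apart for *PAB4* and *PAB2*, and for *PAB8* they overlap, with mutant replicate 1 at -1.54.

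TL was also set against 0 within each genotype, where 0 is fixed by the normalization and means equal log2 signals in PL and NP. In *pab2 pab8*, *PAB4* lay above 0 (TL 0.96, limma, FDR 6.80e-05), as did 22.9% of probe sets, and 93.0% of probe sets had a lower TL. *PAB8* lay below 0 in the mutant (TL -0.67, limma, FDR 0.0132), as did 13.5% of probe sets, although the call was lost without replicate 1 (TL -0.38, limma, FDR 0.0864). *PAB2* gave -0.12 there (interval -0.40 to 0.17, limma, FDR 0.519). In wild-type, *PAB2* lay below 0 (TL -1.08, limma, FDR 1.15e-05), with 2.12 times as much signal in NP as in PL, and only 2.06% of probe sets had a lower TL. *PAB8* was below 0 as well (TL -0.40, limma, FDR 0.0147), a call lost without replicate 2, 3 or 4 (limma, FDR 0.0516 to 0.0814), whereas *PAB4* gave -0.23 (interval -0.48 to 0.03, limma, FDR 0.115). A TL below 0 in wild-type was called for 28.5% of probe sets, against 2 of the 3 genes.

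Within each gene, the 4 groups of fraction arrays were put in order of their mean signal. For *PAB8* the order was wild-type NP, wild-type PL, mutant NP and mutant PL, with no overlap between neighbours. For *PAB2* it was the same, except that mutant NP and mutant PL overlapped. For *PAB4* it was wild-type NP, wild-type PL, mutant PL and mutant NP, and each neighbour overlapped with the next. The fractions of *PAB8* were apart by little. Its lowest NP and highest PL values were 8.04 and 7.98 in wild-type, and 4.57 and 4.47 in the mutant. Mutant signals of *PAB2* and *PAB8* lay near the array median. The share of all probe sets with such an order was not counted.

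The TL changes of the 3 genes were compared within the pairs, since a call for 1 gene and not another is no test of their difference. The change of *PAB4* exceeded that of *PAB8* by 1.46 ± 0.72 (SD, n = 4 pairs, interval 0.31 to 2.61), and that of *PAB2* exceeded that of *PAB8* by 1.24 ± 0.81 (interval -0.05 to 2.53). *PAB4* exceeded *PAB2* by 0.22 ± 0.18 (interval -0.06 to 0.51). Without replicate 1, the changes of *PAB4* and *PAB2* exceeded that of *PAB8* by 1.12 and 0.84. The *PAB2* and *PAB8* changes rest on mutant signals near the array median. All 3 differences were above 0 in 4 of 4 pairs. The exact two-sided sign-flip permutation test gave p = 0.125 for each (0.125 after adjustment over the 3 comparisons), the smallest value that 4 pairs allow.

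Genes whose products work with PABP were read from 5 lists, of which the annotation named probe sets for only 8 of 48 genes. None of the 8 passed the test in any measure, in either direction (limma, FDR below 0.05). Of all probe sets, at most 2.44% were called in either direction of a measure, namely higher in total RNA. An unadjusted p under 0.05 (limma) was found for 0, 2, 3 and 0 of the 8 in NP, PL, total RNA and TL. Among all probe sets it was found for 8.02%, 7.6%, 21% and 8.64%, in the same order. Whether the 8 genes differ from these shares was not tested. The median TL change of the 8 was 0.06, beside 0.05 over all probe sets. Of the other PABP family, 2 of 8 genes were measured. AT5G10350 differed by 0.06 in total RNA (7.50 in *pab2 pab8* and 7.44 in wild-type) and by 0.23 in TL. AT5G65260 differed by 0.22 in total RNA (8.87 in *pab2 pab8* and 8.65 in wild-type) and by -0.03 in TL. None of these differences passed. Both genes are on the list as nuclear PABP genes. None of its cytoplasmic PABP genes had a named probe set, so they were not analysed here.

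Of the proteins that bind PABP through a PAM2 motif, 1 of 12 was measured, AT4G14270, with -0.40 in total RNA (limma, FDR 0.130) and -0.35 in TL (limma, FDR 0.642). Among cap-binding and release factors, 2 of 13 were measured, both with TL changes between 0.10 and 0.11: *EIF4A-2*, the RNA helicase of the cap-binding complex, and AT1G18070. Of the genes for deadenylation and decapping, which remove the tail and the cap, 3 of 11 were measured (AT3G58560, AT3G58580 and AT1G02080). Their TL changes were between -0.03 and 0.21, and the lowest FDR among them in total RNA was 0.0669 (AT3G58560, -0.33). Of the 4 poly(A) polymerases, 0 were measured.

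The probe sets most like each gene were sought by the Pearson correlation of signals over the 22 arrays, after the mean of each kind of array was subtracted, among 2702 probe sets with an SD of at least 0.3. As the arrays share genotypes and batches of growth, these values are a description. The probe set most like *PAB2* was *PAB8* (r = 0.98), and that most like *PAB8* was *PAB2*. Both genes are disrupted in the same line and the genotype differences enter the correlation, so this match was largely set by the design. Next to both came AT1G67865 (r = 0.96 with *PAB2* and 0.95 with *PAB8*), whose changes were -2.82 in NP, -2.66 in PL and -1.91 in total RNA. The third place was held by *MT3*, a metallothionein gene (r = 0.92), for *PAB2* and by AT4G23680 (r = 0.89) for *PAB8*. *PAB4* went with *PAB2* and *PAB8* less closely (r = 0.68 and 0.67). The probe sets most like it were AT4G16880 (r = 0.82), AT5G13030 (r = 0.77) and AT1G12230 (r = 0.76). All 3 had changes of the same signs as *PAB4*, between -0.88 and -0.51 in NP, between -0.43 and -0.08 in PL and between 0.08 and 0.59 in TL. The genotype differences entered the correlations by which these probe sets were chosen, so the shared signs follow in part from that choice.

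The 6 protein-coding genes nearest to each gene in the RefSeq annotation were also read, a step added after the data had been seen. A probe set was named for 1 of 6 around *PAB2*, 1 of 6 around *PAB4* and 5 of 6 around *PAB8*. In each measure 0 of the 7 were called (limma, FDR below 0.05), where at most 2.44% of all probe sets were called in 1 direction. The lowest change in total RNA was -0.15 and the highest 0.59, for AT2G23360 beside *PAB4* (limma, FDR 0.185).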

How the data were processed

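Shoots of *pab2 pab8* and wild-type seedlings were hybridized to Affymetrix ATH1 arrays (22 arrays of NP, PL and total RNA). The authors extracted CEL files with the affy package and RMA, and deposited log2 signals per probe set, and separately a table of log2 TL values, from which 8 columns served as an alternative and 16 columns of per-sample values were not used, since their replicates are numbered otherwise there (5 in place of 4). No column of fold changes or p-values of the authors was used. Normalization forces arrays to similar distributions, so a shift common to most mRNAs would not show. TL was formed here from the signals of each replicate. The test was limma 3.58.1 (R 4.3.3, lmFit and eBayes, two-sided, Benjamini-Hochberg over 22746 probe sets, FDR below 0.05), with figures by matplotlib 3.10.9. The steps were tested on simulated data, with noise drawn independently for each value. Effects of a replicate that both genotypes share were not simulated, so the rates in the real data can differ. A simulated log2 change of 1 was recovered in 55% of cases in NP, 67% in PL, 63% in TL and 89% in total RNA. Unchanged probe sets gave 12, 3, 8 and 5 false calls, in the same order. A 2-fold change can thus be missed, so a gene that did not pass was not shown to be unchanged. The number of arrays limits the precision.

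By the growth notes in the labels, both genotypes were raised together and the replicates at separate times, and equal replicate numbers were taken as pairs. Between mutant and wild-type of 1 number, deviations from the group mean correlated at 0.29 to 0.38 in NP, 0.43 to 0.80 in PL, 0.05 to 0.13 in TL and -0.16 to 0.21 in total RNA, where 2 of the 3 pairs were negative. In PL, replicate 2 correlated slightly better with another number (0.62) than with its own (0.60). Alternatives were the replicate block, another variance prior, the brighter probe sets, median centring, quantile normalization, an unpaired fit and leaving out each replicate.

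Probe sets were named by the annotation table where it gave 1 gene (13513) and otherwise by the study's supplementary tables (432, which include *PAB2*, *PAB4* and *PAB8*), while 503 had several genes and 8298 stayed unnamed. Named genes were the 3 PABP genes, every measured gene of the other PABP family, those with the smallest p of the further lists and the 3 most alike probe sets. The genes and lists were chosen with earlier results of these data known. Protein, promoter and leader sequences were not analysed here.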

Additional observations from a re-analysis of the deposited data

Results flagged for a closer look

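The genotype change of *PAB4* differed between the fractions, and this difference was tested. It was -0.27 in PL and -1.46 in NP (n = 4 pairs), and the change in PL exceeded that in NP by 1.19 (limma, FDR 0.0142), with the same sign in 4 of 4 pairs. In the 18 groups of 4 values of the 3 genes (NP, PL and TL of each genotype), 0 had a single replicate far enough from the others to pass Dixon's 95% limit. The closest was *PAB2* TL in wild-type, where replicate 4 at -1.37 gave a ratio of 0.807.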

How the results depend on the processing

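Of the results on the 3 genes, 58 of 69 values with 1 replicate left out kept their direction and their side of the threshold. Under other settings 67 of 72 values did. The differences between genes are not counted, since their exact test cannot pass the threshold. The block, the other variance prior, the brighter probe sets and the unpaired fit leave each change as it is. Under them only the side of the threshold could move. The TL values of the authors differed from those formed here by at most 5e-04 in a group mean of the 3 genes. With the replicate block, the *PAB4* change in NP stayed at -1.46 and passed (FDR 0.00185), and no other call on the 3 genes changed. The counts of called probe sets went up with the block, to 62 lower and 84 higher in NP (6 and 11 without it) and to 488 lower and 530 higher in PL (23 and 24 without it), while the 1 lower TL call became 0. With a variance prior following the mean signal, *PAB4* in NP (-1.46, FDR 0.0443) and *PAB2* in TL (0.96, FDR 0.00722) passed, and calls numbered 17 lower and 19 higher in NP and 15 each way in TL. Quantile normalization moved *PAB2* in TL to 0.94 (FDR 0.0470) and gave 2 lower TL calls. The unpaired fit of genotype by fraction left *PAB4* in TL at 1.19 (FDR 0.9999) and called 0 probe sets. Among the brightest probe sets 14 were higher in PL, 533 lower in total RNA and 2 higher in TL. With median centring 17 were higher in NP, 613 lower in total RNA (330 without it) and 3 lower in TL. The causes of these shifts were not tested.

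With 1 replicate left out, *PAB4* gave 1.10 to 1.24 in TL (FDR 0.0434 to 0.310), -0.59 to -0.44 in total RNA and -0.48 to -0.15 in PL (FDR 0.818 or above). *PAB8* gave -0.47 to 0.12 in its TL change, turning to 0.12 without replicate 1, -0.86 to -0.38 in TL of *pab2 pab8* and -0.51 to -0.32 in TL of wild-type; without replicate 1 the mutant TL was -0.38 (FDR 0.0864). Counts of calls ranged from 0 to 4 higher in NP, 3 to 6 lower and 0 to 15 higher in PL, 20 to 68 lower and 48 to 309 higher in total RNA, and 0 to 8 higher and 0 lower in TL. Of the limits, 4 pairs of fraction arrays and 3 of total RNA bound what can be called, and mutant *PAB2* and *PAB8* signals near the array median bound what their TL can show.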

Other observations

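The shoot markers *RCA* and *LHCA4* were at the extreme of the gap between total RNA and fraction arrays: in PL it was 10.70 and 10.20 in *pab2 pab8* and 10.70 and 10.41 in wild-type, larger than for at least 99.98% of probe sets. Smaller gaps of this kind were seen in other probe sets. Of 1165 probe sets with a mean total RNA signal above 10 in *pab2 pab8*, 67 (5.75%) had a mean PL signal below 5, and in wild-type 74 of 1210 (6.12%) did, limits chosen after the values were seen. In NP the numbers were 73 of 1165 (6.27%) in *pab2 pab8* and 79 of 1210 (6.53%) in wild-type. The median of total RNA minus PL over all probe sets was 0.91 in *pab2 pab8* and 0.92 in wild-type. For *PAB2*, *PAB4* and *PAB8* this difference was 0.23, 1.03 and 2.01 in *pab2 pab8* and 0.85, 1.29 and 2.27 in wild-type, so none of them was among the probe sets bright in total RNA and dim in PL. *PAB8* had a larger difference than 91.8% of probe sets in wild-type.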
